A study of Mus musculus with 9 samples.

Results

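AML12 is a line of mouse hepatocytes, the main epithelial cells of the liver. Its untreated cells were taken as the 3 control samples of the series, out of 9 samples in all, and described across the 6213 genes of 1 count table. The samples were chosen by their label of no treatment, not by any measured value, and no level given here uses a treated sample, although treated samples bear on which genes the table lists. Each control was grown in medium with fetal bovine serum and received neither the fatty acids abbreviated PA and OA in the labels nor the peptide Ang(1-7). Of the other samples, 3 received 0.2 mM PA and 0.4 mM OA for 24 h. The last 3 received 100 nM Ang(1-7) for 30 min before the same fatty acids. All samples are of the same line, and the labels do not say whether the 3 controls came from separate cultures, so the spread between them may be technical.

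Hepatocytes make most proteins of the blood plasma and run the urea cycle, glucose release, bile acid synthesis and drug breakdown. A small set of transcription factors, among them Hnf4a and the Foxa factors, maintains these programs, and much of the program is known to fade in culture. AML12 was derived from the liver of a mouse that carried a human transforming growth factor alpha transgene under a metallothionein promoter. That factor is a ligand of the epidermal growth factor (EGF) receptor, which drives hepatocyte division. A level in these data is a value per sequenced read, so fewer cells of a type and less RNA per cell cannot be told apart.

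The 3 controls held 26576151 to 27357654 counts over 6936 RefSeq transcripts, of which 5403 were curated and 1533 predicted. Counts were summed per gene symbol and scaled to CPM, the counts of a gene per 1000000 listed counts of its library. Values are given as mean ± SD over the 3 controls (n = 3), and 1 count corresponds to 0.0366 to 0.0376 CPM. The median gene stood at 23.1 CPM, with quartiles at 6.26 and 107. Of the 6213 genes, 146 reached 1000 CPM, 1626 reached 100 CPM and 4039 reached 10 CPM. Every listed transcript averaged at least 56.8 counts over the table's 6 libraries, 3 of which are of cells given PA and OA, so the treated cells have a part in which genes are listed. Of the listed transcripts, 221 (3.19%) had a mean below that floor in the controls alone, and 149 genes had only such transcripts. These genes still count as measured in the lists, and only some of them are pointed out. A gene without a listed transcript has no value here and is given as not measured. Of 21887 coding genes in RefSeq, 6149 (28.1%) were listed, and the number of measured members of a list is to be read beside that share.

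The number of annotated transcripts of a gene went with its level. Genes with 1 RefSeq transcript had a median of 106 CPM (2531 genes). Those with 2 transcripts had 18.2 CPM (1381 genes), those with 3 had 9.96 CPM (685 genes), and those with over 10 had 4.77 CPM (314 genes). The share of genes at or above 100 CPM was 51.8% with 1 transcript and 1.27% with over 10. Of the 3628 genes with at least 2 annotated transcripts, 3396 (93.6%) were listed through only some of them. Gapdh, a glycolytic enzyme often used as an abundant reference, had 24.1, 21.8 and 21.5 CPM in the 3 controls and 3 RefSeq transcripts. Pkm, the pyruvate kinase of dividing cells, had 5.19, 4.46 and 4.703 CPM and 14 RefSeq transcripts. How reads shared by several transcripts were counted is not given in the sources used here, and its part in these levels was not tested. Levels are therefore compared between genes only among the 2464 genes with 1 RefSeq transcript and a known length, as CPM per kilobase of transcript. The length is the median over the transcripts of the GENCODE M21 annotation linked to that RefSeq transcript. It was not checked against the RefSeq record, so orders per kilobase also rest on it. The median of the 2464 genes was 44.3 CPM per kilobase, with quartiles at 13.2 and 127. For other genes the CPM is given with the number of RefSeq transcripts, and it stands for the listed transcripts alone.

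**Figure D1:**
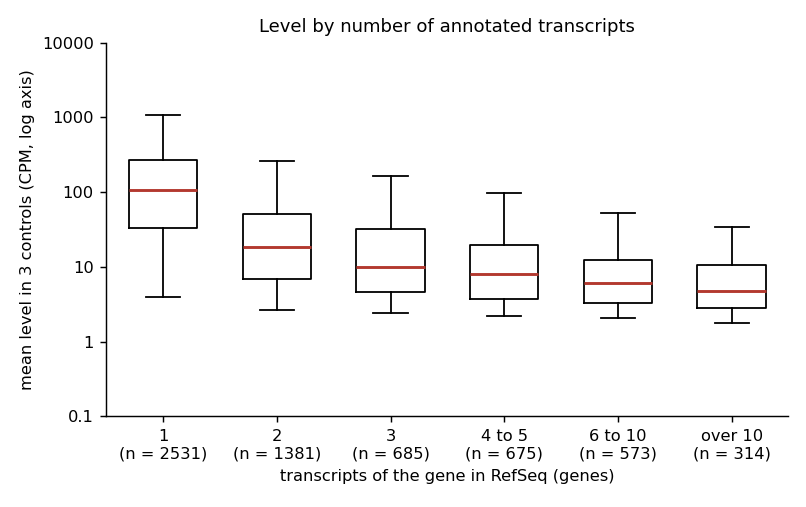
Mean level over the 3 controls (CPM, log axis) for genes grouped by the number of transcripts in RefSeq. Boxes span the quartiles with the median in red and whiskers run from the 5th to the 95th percentile; the median is 106 CPM with 1 transcript and 4.77 CPM with over 10.

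Few genes held most of the counts. The highest gene took 4.86% ± 0.0724 of the listed counts, the 10 highest took 14.2% ± 0.0749, and the 100 highest took 41.2% ± 0.126. The first 179 genes, 2.88% of all, together held 50% of the counts. The highest gene was Eef1a1, the elongation factor that brings aminoacyl-tRNA to the ribosome. It stood at 48029, 48361 and 49416 CPM in controls 1, 2 and 3, far above every other gene. In CPM it was followed by Actb, beta-actin (16973 ± 631 CPM, 2 RefSeq transcripts), and by Krt8, a keratin of simple epithelia (12833 ± 489 CPM). Eef2, which moves the ribosome along the message, had 11723 ± 216 CPM. S100a6, a calcium-binding protein, had 11015, 10208 and 8819 CPM, with control 3 the lowest. The other genes of the first 10 were Krt18, the keratin partner of Krt8, the ribosomal proteins Rplp0 and Rpsa, the intermediate filament vimentin (Vim) and the galectin Lgals1, between 7635 and 9931 CPM.

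Per kilobase, genes with short transcripts moved up. Eef1a1 remained first at 27092 ± 404 CPM per kilobase, and its lowest library lay above every library of every other gene with 1 transcript. S100a6 came next with 15068, 13965 and 12064 CPM per kilobase in controls 1 to 3, its 3 libraries all above those of the third gene, Rpl41 (11181 ± 854 CPM per kilobase). Lgals1 had 9544 ± 294 CPM per kilobase, and the ribosomal protein gene Rplp1 had 9189.5 ± 796 CPM per kilobase. The ranges of this pair overlapped, so their order is not resolved. Ftl1, the light chain of the iron store ferritin, had 7687 ± 212 CPM per kilobase. After Ftl1 came the ribosomal protein genes Rps14 (7232 CPM per kilobase) and Rpl8 (7024 CPM per kilobase). Krt18 ranked 9 at 6911 ± 154 CPM per kilobase and its partner Krt8 ranked 11 at 6554 ± 249.8 CPM per kilobase, with Rpl23a (6894 CPM per kilobase) between them. Among the 20 highest genes, 12 overlapped the next one in their libraries.

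**Figure D2:**
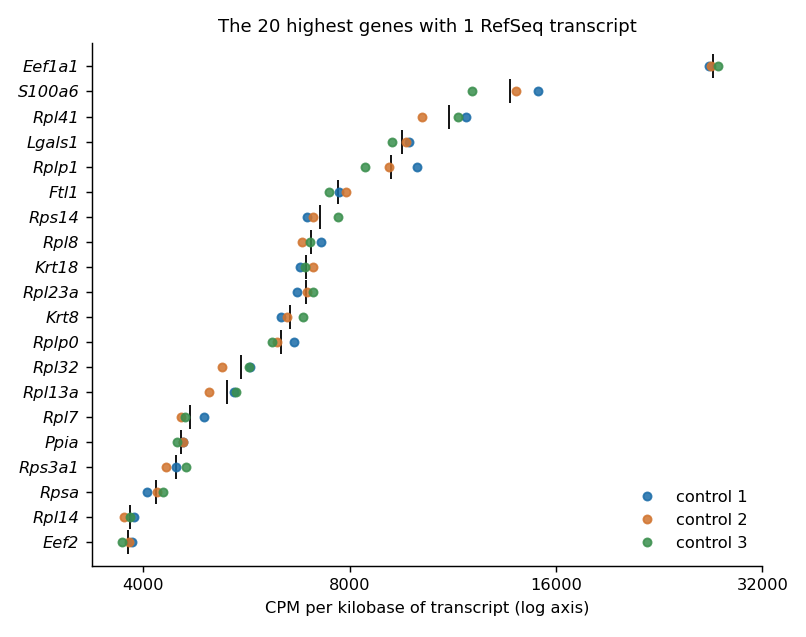
The 20 highest genes with 1 RefSeq transcript, as CPM per kilobase on a log axis; each point is 1 control library and the black bar is the mean of 3. Eef1a1 stands alone at 27092, S100a6 is spread from 12064 to 15068, and from Lgals1 downwards many neighbours overlap.

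The start regions of 7 genes with high levels and of albumin, the classical hepatocyte product near the bottom, are printed to show what lies at their annotated starts. They were picked by hand among genes with 1 RefSeq promoter, and several of the highest genes are not among them. Each window holds 60 bases before the RefSeq start and 30 from it onwards, 5′ to 3′ on the gene's strand, from RefSeq on build GRCm38.p6, with the first match to the letters TATA in capitals. Albumin (Alb) had 5.84, 4.48 and 3.18 CPM per kilobase in controls 1 to 3, whereas the other 7 genes lay between 3539 and 27092 CPM per kilobase.
Eef1a1, chr9:78481695-78481784, minus strand: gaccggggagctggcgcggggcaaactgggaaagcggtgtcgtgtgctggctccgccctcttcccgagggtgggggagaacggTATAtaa
S100a6, chr3:90612834-90612923, plus strand: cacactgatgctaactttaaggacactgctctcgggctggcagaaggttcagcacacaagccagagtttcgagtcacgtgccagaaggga
Ftl1, chr7:45459857-45459946, minus strand: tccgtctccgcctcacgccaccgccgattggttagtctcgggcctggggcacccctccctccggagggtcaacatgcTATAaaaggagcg
Krt18, chr15:102028156-102028245, plus strand: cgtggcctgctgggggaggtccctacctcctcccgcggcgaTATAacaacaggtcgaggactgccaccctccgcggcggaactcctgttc
Krt8, chr15:102004313-102004402, minus strand: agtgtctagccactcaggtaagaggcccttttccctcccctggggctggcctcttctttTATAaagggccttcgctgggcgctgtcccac
Rplp0, chr5:115559407-115559496, plus strand: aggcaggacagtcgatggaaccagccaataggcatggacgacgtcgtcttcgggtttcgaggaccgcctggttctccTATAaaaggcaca
Vim, chr2:13574251-13574340, plus strand: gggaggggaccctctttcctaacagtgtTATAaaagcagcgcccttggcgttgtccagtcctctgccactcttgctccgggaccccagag
Alb, chr5:90460810-90460899, plus strand: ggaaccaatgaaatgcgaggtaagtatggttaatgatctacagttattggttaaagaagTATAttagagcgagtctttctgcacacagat
The letters TATA occur in 7 of these 8 windows and are not found in that of S100a6. As the genes were picked by hand, this share does not stand for the highest genes, of which 27% of 100 hold TATA in this window. In Vim the match begins 32 bases before the annotated start and in Krt18 19 bases before it. In Krt8 and Alb it begins 1 base before the start, in Ftl1 and Rplp0 17 bases after it, and in Eef1a1 23 bases after it. A TATA box works upstream of the start, and the start used in these cells was not measured.

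Searched on the gene's strand in the same 90-base window, TATA occurred in 27% of the 100 genes highest per kilobase (histone genes left out) and in 4% of the 100 lowest. Without ribosomal protein genes as well, the share among the 100 highest was 26%. It was 9.28% of the 1951 genes with 1 transcript, a level and 1 RefSeq promoter, and 13.3% of all 32851 RefSeq promoters. The longer TATAAA, searched on both strands over 300 bases, differed less, with 17% of the 100 highest and 9% of the 100 lowest. It occurred in 10.0% of the 1951 genes and in 13.6% of all promoters. A run of 8 bases that were all C or T, the kind of tract known at the start of ribosomal protein messages, occurred in 17 of 31 ribosomal protein genes (54.8%). The same run was in 30.6% of the 1951 genes and in 33.5% of all promoters. Its share was 37% of the 100 highest genes and 36% of the 100 lowest. These are counts of letters and do not show that a site is used.

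The hepatocyte label was then checked against markers. Of 14 hepatocyte markers, 3 were measured (against 28.1% of all coding genes), namely Alb, transthyretin (Ttr) and Hnf4a. Their summed level was 36.3, 26.9 and 28.1 CPM in controls 1, 2 and 3. The other 11, which include Apoa1, Apoa2, Fga, Fgb, Cps1, Ass1 and Cyp2e1, were not measured. Of 8 markers of cholangiocytes, the bile duct cells, 4 were measured (Krt7, Krt19, Sox9 and Spp1), and they summed to 2135, 1993 and 2030 CPM. Nearly all of that sum was Krt7 and Krt19. Of the measured markers, Alb, Krt7 and Sox9 had 1 transcript, at 4.499 CPM per kilobase for Alb, 272 CPM per kilobase for Krt7 and 5.098 CPM per kilobase for Sox9, and the sums mix them with genes of several transcripts. With so few markers measured the hepatocyte label could not be checked further, and the samples are referred to as untreated AML12 cells.

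Plasma protein genes showed a strongly uneven picture. Of the 52 genes of the list, 14 were measured, and they summed to 955 ± 52.5 CPM, which is 0.0955% of the counts. Transferrin (Trf), the iron carrier of plasma, made up most of it with 488, 439.9 and 529.6 CPM in controls 1 to 3, or 189 ± 17.5 CPM per kilobase. Per kilobase Trf lay at 42.0 times the level of Alb, with library ratios from 32.5 to 64.7. Albumin itself had 325, 247 and 172 counts in the 3 controls, with control 1 the highest. Hemopexin (Hpx), which binds heme, had 51.98 ± 3.55 CPM per kilobase, and the vitamin D binding protein gene Gc had 44.1 ± 4.25 CPM per kilobase. Both were near the median of all genes with 1 transcript. Itih2, a subunit of a protease inhibitor that binds hyaluronan, had 4.62 ± 0.681 CPM per kilobase, and Serpina1b, an alpha-1 antitrypsin, had 2.51 ± 0.231 CPM per kilobase. Clusterin (Clu) had 98.8 ± 5.88 CPM with 4 RefSeq transcripts, and Apob, the structural protein of very low density lipoprotein, had 92.9 ± 2.88 CPM with 2. Complement C3 had 45.3 ± 1.93 CPM, Ttr had 13.2 ± 4.03 CPM and haptoglobin (Hp) had 4.06 ± 1.49 CPM, each with 2 RefSeq transcripts.

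The fetal counterpart of albumin was not lower than albumin. Afp, alpha-fetoprotein, had 17.4, 17.1 and 22.3 CPM in the 3 controls, against 11.9, 9.104 and 6.47 CPM for Alb. Per kilobase the ratio of Afp to Alb was 2.04, with library ratios from 1.44 to 3.39, and the libraries of the 2 genes did not overlap.

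Transcription factors of hepatocytes were measured for 11 of 31 genes and summed to 326 ± 10.5 CPM. Most of that was Onecut2 (129 ± 8.68 CPM, 2 RefSeq transcripts) and the orphan nuclear receptor Nr2f6 (115 ± 10.6 CPM, 4 RefSeq transcripts). With only the highest transcript of each gene, Nr2f6 had 60.6 CPM and the list summed to 269 CPM, and with curated transcripts only they were 61.3 and 265 CPM. Of these members, 3 had 1 transcript. Hhex, a homeobox gene of early liver, had 16.98 ± 1.37 CPM per kilobase, Foxa3 had 7.54 ± 0.536 CPM per kilobase, and Onecut1 had 0.412 ± 0.339 CPM per kilobase from 8, 44 and 79 counts. The mean of Onecut1 lay below the table's floor of 56.8 counts, so it is listed only through the treated libraries. All 3 genes were under the median of genes with 1 transcript. Foxa2 had 11.8, 10.98 and 11.5 CPM with 3 RefSeq transcripts, and Hnf4a had 8.99, 9.25 and 5.95 CPM with 5. In Hnf4a control 3 was the lowest library, and in Foxa2 the 3 libraries were close together.

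Of 34 genes of the urea cycle and amino acid breakdown, 14 were measured, and the 8 with 1 transcript had a median of 173 CPM per kilobase, above the 44.3 of all genes with 1 transcript. Glul, which makes glutamine from ammonia, had 1176, 1128 and 1133 CPM, or 410.3 ± 9.599 CPM per kilobase. Ahcy, which clears S-adenosylhomocysteine, had 278 ± 4.25 CPM per kilobase, and the aspartate aminotransferase Got2 had 253 ± 6.29 CPM per kilobase. Gldc, of glycine cleavage, had 149.6 ± 3.65 CPM per kilobase. The lowest of the 8 was Fah, of tyrosine breakdown, with 35.3 ± 3.59 CPM per kilobase. Of the urea cycle proper, Asl had 4.204, 2.62 and 1.96 CPM with 3 RefSeq transcripts, and Cps1 and Ass1 were not measured.

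Of 19 genes of gluconeogenesis and glycogen, 7 were measured, a share not below the 28.1% of all coding genes, and they summed to 143 ± 3.403 CPM. Gbe1, the glycogen branching enzyme, had 17.9 ± 3.17 CPM per kilobase. Slc2a2, the glucose transporter of hepatocytes, had 15.4, 12.4 and 8.62 CPM, or 2.18 ± 0.613 CPM per kilobase, with control 3 the lowest. Of 21 genes listed for bile acid synthesis and transport, 5 were measured, all with several RefSeq transcripts. They summed to 87.4 ± 8.48 CPM. Most of that was the multidrug export pump Abcb1b (65.8 ± 7.44 CPM, 2 RefSeq transcripts), and the next was Amacr (12.3 ± 2.49 CPM, 2 RefSeq transcripts). Cyp27a1 (2.04 CPM) and Hsd3b7 (2.03 CPM) lay below the floor of 56.8 counts in the controls. Both are listed only through the treated libraries.

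Genes of drug metabolism were measured for 30 of 62 members and summed to 4488 ± 52.3 CPM. The 14 with 1 transcript had a median of 67.5 CPM per kilobase. The highest were conjugating enzymes and reductases found in many tissues. Gsto1, a glutathione transferase, had 1215, 1171 and 1230.4 CPM, or 1019.6 ± 26.2 CPM per kilobase. Gstp1, another glutathione transferase, had 346 ± 29.7 CPM per kilobase, and the aldo-keto reductases Akr1b3 and Akr1b8 had 344 ± 20.6 CPM per kilobase and 216 ± 10.4 CPM per kilobase. Cyp51, a cytochrome P450 of cholesterol synthesis, had 191 ± 4.22 CPM per kilobase. Ugt2b34, a glucuronosyltransferase, had 49.3 ± 3.61 CPM per kilobase. Among P450s of drug breakdown, Cyp2s1 had 11.3 ± 0.876 CPM per kilobase and Cyp3a13 had 58.7 ± 6.81 CPM with 3 RefSeq transcripts. Por, the reductase that serves all microsomal P450s, had 12.8, 8.88 and 11.4 CPM with 3 RefSeq transcripts.

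Genes of fetal liver and progenitor cells were measured for 12 of 30 members. The annexins Anxa1 (1247 ± 41.3 CPM per kilobase) and Anxa5 (627 ± 25.8 CPM per kilobase) and the surface protein Cd24a (790.0 ± 32.8 CPM per kilobase) were the highest of the 9 with 1 transcript, whose median was 38.2 CPM per kilobase. The RNA-binding proteins Igf2bp1 and Igf2bp2, which are typical of embryonic tissue, had 38.2 ± 4.52 CPM per kilobase and 14.4 ± 1.38 CPM per kilobase. Sox4 had 65.7 ± 3.35 CPM per kilobase and Sox9 had 5.098 ± 0.682 CPM per kilobase. Biliary markers were measured for 9 of 20 members, of which Onecut1 was listed only through the treated libraries. Krt7, a duct keratin, had 1113, 1129.5 and 1098 CPM, or 272 ± 3.89 CPM per kilobase, and Krt19 had 996, 838 and 910.3 CPM with 2 RefSeq transcripts. The other biliary members stood at or under 28.4 CPM, the value of the water channel Aqp1, whose controls had 36.9, 30.1 and 18.2 CPM. Spp1, osteopontin, had 2.08, 3.796 and 3.99 CPM with 5 RefSeq transcripts, and Epcam was not measured.

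Some epithelial keratins and some genes named for mesenchymal cells were among the highest of all. Keratin and junction genes (18 of 41 measured) summed to 2.98% of all counts, mostly Krt8 and Krt18. Mesenchymal genes (16 of 33 measured) summed to 3.11%, mostly S100a6, Vim and Lgals1. Of the measured members, 12 of the 18 and 8 of the 16 reached 100 CPM, against 1626 of all 6213 genes. Among all genes with 1 RefSeq transcript the share was 51.8%, and 10 of the 18 and 9 of the 16 are such genes. These counts therefore do not set the lists as a whole apart. Krt8 and Krt18 form 1 filament, and their levels per kilobase were close, with a Krt8 to Krt18 ratio of 0.948 (libraries 0.915 to 0.993). Krt18 was 25.4 times as high as Krt7 per kilobase, a ratio that rests on the lengths used, and had 9931 against 1113 CPM. Vim, the filament protein of mesenchymal cells, had 3329.7, 3513 and 3774 CPM per kilobase, and its ratio to Krt8 was 0.540, with library values from 0.524 to 0.552. E-cadherin (Cdh1), the adhesion protein of epithelia, had 484, 538 and 519 CPM, or 116 ± 6.22 CPM per kilobase. N-cadherin (Cdh2), which hepatocytes also carry, had 35.6, 40.5 and 38.7 CPM with 2 RefSeq transcripts.

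Around the keratins, Ezr, which ties actin to the apical membrane, had 864 ± 14.04 CPM per kilobase. Krt20 had 115 ± 11.2 CPM per kilobase, the tight junction protein F11r had 92.6 ± 3.604 CPM per kilobase, and the desmosomal genes Dsg2 and Pkp2 had 30.8 ± 1.44 CPM per kilobase and 34.1 ± 3.51 CPM per kilobase. Gja1, a gap junction protein that adult hepatocytes barely use, had 80.3, 92.8 and 71.4 CPM, or 26.5 ± 3.51 CPM per kilobase. Gjb1, the main gap junction protein of hepatocytes, was not measured. On the mesenchymal side S100a6 and Lgals1 were accompanied by the actin partners Tpm4 (1335 ± 22.4 CPM per kilobase) and Tagln2 (969 ± 56.4 CPM per kilobase). The median of the 9 members with 1 transcript was 969 CPM per kilobase. The 7 measured members with several RefSeq transcripts had a median of 15.1 CPM, against 9.59 CPM for all genes with at least 2. Among them were Sparc (33.3 CPM), S100a4 (18.2 CPM), Thbs1 (15.1 CPM) and Tpm1 (6.08 CPM). Of the transcription factors of this program, Snai2 had 30, 144 and 27 counts in controls 1 to 3, with control 2 the highest, and a mean of 2.47 CPM, or 1.06 CPM without control 2. Zeb1 had 6.58, 4.72 and 2.596 CPM with 19 RefSeq transcripts, close to the median of 4.77 CPM of genes with over 10.

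**Figure D3:**
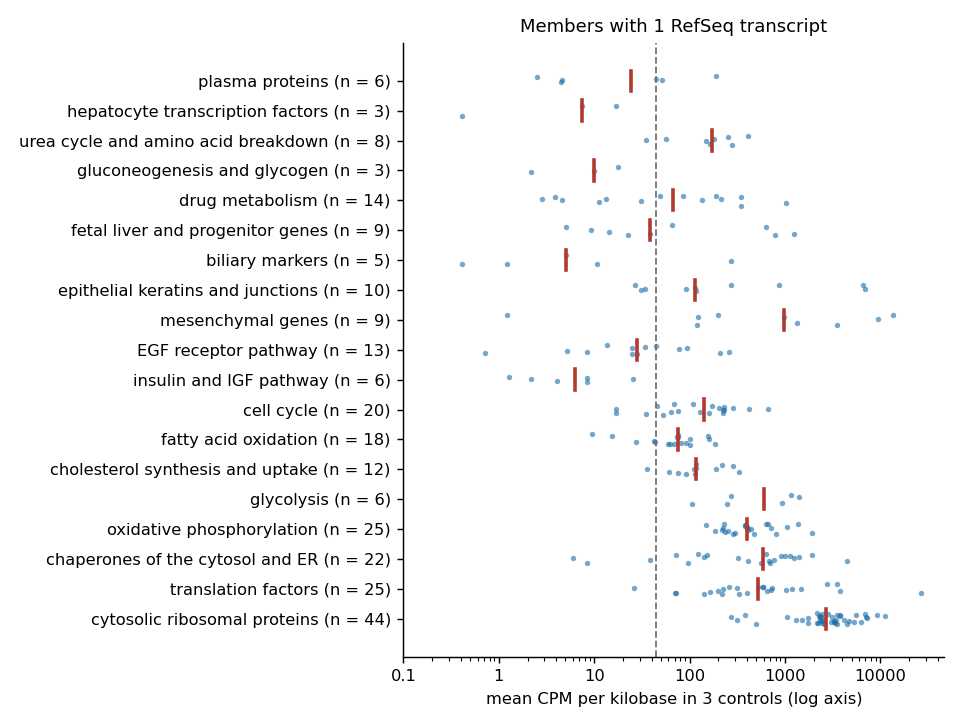
Mean CPM per kilobase (log axis) of the members with 1 RefSeq transcript in 19 gene lists; each point is a gene, the red bar is the list's median and the dashed line is the median of all 2464 such genes, 44.3. Hepatocyte transcription factors and biliary markers lie mostly left of the line and ribosomal proteins, translation factors and mesenchymal genes to its right.

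The EGF receptor pathway was measured for 29 of 42 members. Of the receptors, Egfr had 316, 359 and 304 CPM in controls 1 to 3 with 2 RefSeq transcripts. Erbb2, its partner without a ligand of its own, had 125, 128 and 126 CPM, or 25.2 ± 0.238 CPM per kilobase, and Erbb3, which lacks strong kinase activity, had 29.1, 27.9 and 36.1 CPM, or 5.16 ± 0.733 CPM per kilobase. Erbb2 was nearly the same in the 3 libraries, and its lowest library lay above the highest of Erbb3.

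The 5 measured ligands had means from 81.1 to 253 CPM, and the median gene with 1 RefSeq transcript had 106 CPM. Amphiregulin (Areg) had 276, 243 and 239.7 CPM, or 208 ± 16.4 CPM per kilobase, and heparin-binding EGF (Hbegf) had 93.96 ± 8.01 CPM per kilobase. Epiregulin (Ereg) had 33.98 ± 2.88 CPM per kilobase and betacellulin (Btc) had 28.2 ± 2.28 CPM per kilobase. Both lay under the median of 44.3 CPM per kilobase of genes with 1 transcript. Per kilobase Areg was 6.12 times as high as Ereg (libraries 5.45 to 7.33), and the order Areg, Hbegf, Ereg, Btc held without overlap between the libraries of neighbours. The mouse gene of transforming growth factor alpha, Tgfa, had 152, 176 and 188 CPM with 2 RefSeq transcripts, and whether reads of the human transgene entered that count was not tested.

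The feedback genes that dampen this pathway include dual-specificity phosphatases, which switch off the MAP kinase Erk. Dusp6 had 717, 776 and 701 CPM, or 262 ± 14.2 CPM per kilobase, and Dusp4 had 78.3 ± 5.49 CPM per kilobase. Dusp1 and Dusp5 had 25.2 ± 4.26 CPM per kilobase and 13.7 ± 3.100 CPM per kilobase, with control 3 the highest in both. Spred1 had 129.6 ± 16.5 CPM, Spry2 had 17.3 ± 2.33 CPM and Errfi1, which binds the receptor itself, had 4.53 ± 0.738 CPM, each with 2 RefSeq transcripts. Spry4, with 1 transcript, had 4.31, 1.77 and 4.03 CPM, or 0.709 ± 0.293 CPM per kilobase, with control 2 the lowest. Further along the pathway, the kinase Mapk3 had 44.9 ± 10.1 CPM per kilobase and the exchange factor Sos1 had 8.41 ± 0.532 CPM per kilobase.

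**Figure D4:**
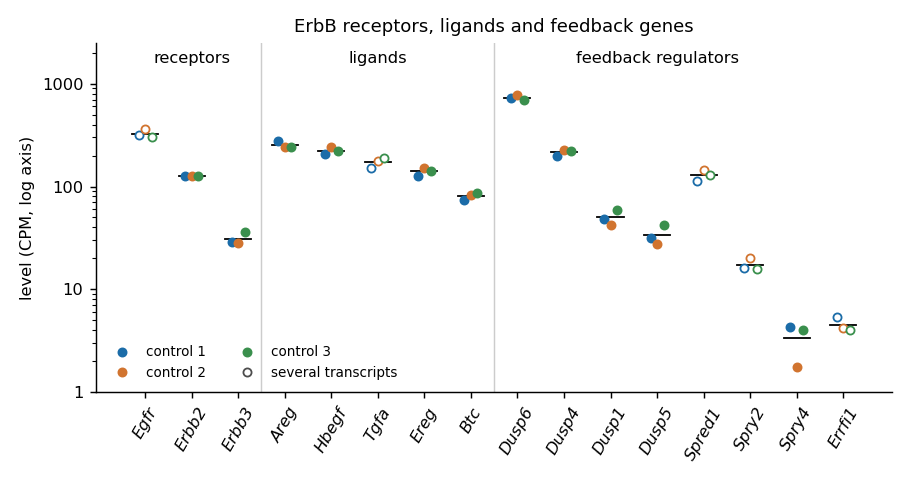
Levels (CPM, log axis) of ErbB receptors, their ligands and feedback regulators in the 3 controls, with the mean as a bar; filled points mark genes with 1 RefSeq transcript and hollow points genes with several. Dusp6 is the highest at 731 CPM, the 5 ligands lie between 81.1 and 253, and levels in CPM are not corrected for length.

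Of 47 other growth and cytokine receptors and their ligands, 22 were measured. The 11 with 1 transcript had a median of 12.4 CPM per kilobase, under the lower quartile of 13.2 of all such genes. Ifngr1 and Ifngr2, the chains of the interferon gamma receptor, had 95.7 ± 4.397 CPM per kilobase and 32.6 ± 4.301 CPM per kilobase. Notch2 had 53.1 ± 1.29 CPM per kilobase and Notch1 had 5.54 ± 0.353 CPM per kilobase, with no overlap between their libraries. Il6st, the signalling chain for interleukin 6, had 32.5 ± 1.16 CPM per kilobase. In the insulin and IGF pathway (16 of 33 measured) the most counts fell to Igfbp4, a binding protein of insulin-like growth factors, with 1122, 1172 and 1089 CPM and 3 RefSeq transcripts. The docking proteins of the insulin receptor had 25.5 ± 0.452 CPM per kilobase for Irs2 and 4.08 ± 0.575 CPM per kilobase for Irs1, again without overlap.

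The series concerns Ang(1-7), a peptide cut from angiotensins, so the genes of that system were listed in untreated cells. Of 20 genes, 6 were measured, and Mas1, the receptor through which Ang(1-7) is thought to act, was not among them. The precursor gene Agt had 48, 169 and 63 counts in controls 1 to 3, with control 2 the highest, or 1.75, 6.23 and 2.37 CPM. Thop1, a peptidase that can form Ang(1-7), had 360.3, 344 and 337 CPM, or 123 ± 4.21 CPM per kilobase, and Prep, another such peptidase, had 70.5, 67.6 and 73.04 CPM with 2 RefSeq transcripts. Atp6ap2, the prorenin receptor and a part of the proton pump, had 187 ± 8.49 CPM per kilobase. Lnpep, an aminopeptidase that binds angiotensin IV, had 15.1 ± 1.23 CPM per kilobase. Ctsd, a lysosomal protease, had 825 ± 28.1 CPM per kilobase.

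Genes of the cell cycle were measured for 45 of 58 members and summed to 10482 ± 264 CPM, or 1.05% of the counts. The 20 members with 1 transcript and a length had a median of 144 CPM per kilobase. In DNA synthesis, the clamp Pcna had 961, 1045 and 995 CPM, or 659 ± 27.9 CPM per kilobase, the ribonucleotide reductase genes Rrm1 and Rrm2 had 222 ± 10.7 CPM per kilobase and 288 ± 18.3 CPM per kilobase, and the helicase subunit Mcm2 had 227 ± 4.47 CPM per kilobase. In mitosis, the spindle motor Kif11 had 232 ± 3.55 CPM per kilobase, cyclin B1 (Ccnb1) had 230.4 ± 4.99 CPM per kilobase and its kinase Cdk1 had 109 ± 4.73 CPM per kilobase. All of these stood above the upper quartile of genes with 1 transcript except Cdk1, which was below it. Mki67, the usual marker of dividing cells, had 1.21, 2.95 and 4.06 CPM with 4 RefSeq transcripts. Cyclin D1 (Ccnd1) had 46.97, 33.1 and 46.2 CPM with 2, and Cdk6 had 594 ± 23.7 CPM with 2.

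Inhibitors of the cycle were measured too. Cdkn2b, which binds Cdk4 and Cdk6, had 96.9, 89.5 and 97.6 CPM, or 68.1 ± 3.21 CPM per kilobase. Cdkn2a had 28.4, 30.7 and 28.4 CPM and Cdkn1a, a target of p53, had 3.399, 2.51 and 5.68 CPM, each with 2 RefSeq transcripts. Mdm2, another p53 target, had 79.5 ± 7.16 CPM with 4.

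The replication-dependent histone genes, which are used in S phase, were measured for 64 genes of the 4 clusters and held 2.80% of the counts. Their sums were 29370.1, 26112 and 28566 CPM in controls 1 to 3. Of the 100 highest genes per kilobase, 18 were histone genes. Many of them are near-identical copies, so the split between single genes is uncertain and none is named.

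Of the 36 gene lists, that of ribosomal proteins held the most counts. Of its 79 cytosolic ribosomal protein genes, 77 were measured, and they held 13.8% of the counts. The 44 with 1 transcript and a length had a median of 2703 CPM per kilobase, against 44.3 for all such genes. The lowest value of the whole list was that of Rpl35a, with 3.58, 3.17 and 0.903 CPM and 3 RefSeq transcripts. The difference by number of transcripts was plain within this list too, as the 45 members with 1 transcript had a median of 2495 CPM and the 32 with several had 58.1 CPM. Processed copies of these genes are common in the genome, and how reads that fit several places were counted is not given in the sources used here.

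Translation factors were measured for 39 of 43 members and held 9.38% of the counts, of which Eef1a1 made up 4.86%. Among them Rack1, a scaffold on the small ribosomal subunit, had 3552 ± 147 CPM per kilobase, which is 0.559 of the level of Rplp0 (libraries 0.550 to 0.566). Both proteins occur in the ribosome. Eef1g had 2757 ± 85.3 CPM per kilobase and the initiation factor Eif4b had 1028 ± 17.2 CPM per kilobase. Chaperones of the cytosol and endoplasmic reticulum (39 of 46 measured) held 4.53% of the counts. The peptidyl-prolyl isomerase Ppia had 4536 ± 54.9 CPM per kilobase, the heat shock protein Hsp90ab1 had 1911 ± 16.4 CPM per kilobase, calreticulin (Calr), which folds glycoproteins, had 1422 ± 42.3 CPM per kilobase, and the mitochondrial Hspa9 had 1145 ± 23.9 CPM per kilobase. Hspa8 had 7455 ± 403 CPM with 2 RefSeq transcripts.

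Energy genes followed at high levels. The 25 oxidative phosphorylation genes with 1 transcript (46 of 48 measured in all) had a median of 402 CPM per kilobase, and the ATP synthase subunits Atp5b and Atp5a1 were the highest with 1935 ± 59.5 CPM per kilobase and 1379 ± 23.8 CPM per kilobase. The 6 glycolysis genes with 1 transcript had a median of 604 CPM per kilobase. Pgk1, Tpi1 and Pgam1 had 1414 ± 34.9 CPM per kilobase, 1168 ± 68.1 CPM per kilobase and 936 ± 32.00 CPM per kilobase, and the lactate exporter Slc16a1 had 106 ± 3.15 CPM per kilobase. The tricarboxylic acid cycle (29 of 32 measured) had a median of 131 CPM per kilobase over 14 genes. Phgdh, the entry enzyme of serine synthesis, had 2518, 2523 and 2481 CPM, or 1324 ± 12.2 CPM per kilobase, and the transketolase Tkt had 482 ± 38.2 CPM per kilobase.

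In lipid metabolism, desaturases and sterol enzymes were prominent. Scd2, the stearoyl-CoA desaturase typical of brain and fetal tissue, had 2831, 3072 and 2957 CPM, or 541 ± 22.1 CPM per kilobase. Scd1, the desaturase of adult liver, had 835, 936 and 857 CPM, or 181 CPM per kilobase. Per kilobase Scd2 was 2.99 times as high as Scd1, with library ratios from 2.91 to 3.06. Fasn, fatty acid synthase, had 1626, 1629 and 1628 CPM with 2 RefSeq transcripts. Fads2, a desaturase of polyunsaturated fatty acids, had 167 ± 8.201 CPM per kilobase, and the elongase Elovl6 had 30.03 ± 0.196 CPM per kilobase.

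Cholesterol genes were measured for 24 of 30 members, and the 12 with 1 transcript had a median of 116 CPM per kilobase. Ebp had 332 ± 34.7 CPM per kilobase, Msmo1 had 283 ± 7.89 CPM per kilobase and Sqle had 219.6 ± 7.91 CPM per kilobase, all enzymes between squalene and cholesterol or at squalene itself. Insig1, which holds back the sterol sensor, had 312, 291 and 302 CPM, or 112 ± 3.89 CPM per kilobase. The synthase Hmgcs1 had 2.23, 3.502 and 5.12 CPM with 3 RefSeq transcripts.

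Fatty acid oxidation genes were measured for 20 of 36 members, and 18 of the 20 had 1 RefSeq transcript. Their median was 75.5 CPM per kilobase. Hsd17b4, of the peroxisome, had 160.4 ± 9.71 CPM per kilobase, Acadvl had 158 ± 8.73 CPM per kilobase and Hadha, of the mitochondrial trifunctional protein, had 100.5 ± 7.76 CPM per kilobase. Cpt1a, the gate of mitochondrial entry, had 29, 40 and 32 counts and 6 RefSeq transcripts, so no order between it and the enzymes can be given. These counts are below the table's floor of 56.8, so Cpt1a is listed only through the treated libraries. Of lipid droplet and lipoprotein genes (14 of 34 measured), the coat protein Plin3 had 98.2 ± 4.82 CPM per kilobase, G0s2, an inhibitor of the lipase Pnpla2, had 71.8 ± 4.86 CPM per kilobase, Fitm2 had 22.8 ± 0.658 CPM per kilobase and Dgat2, of triglyceride synthesis, had 19.7 ± 3.098 CPM per kilobase.

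Iron and antioxidant genes (28 of 38 measured) held 1.51% of the counts. Ftl1 was the highest, at 40.7 times the level of Trf per kilobase. Peroxiredoxin 1 (Prdx1) had 917 ± 24.4 CPM per kilobase, thioredoxin (Txn1) had 493 ± 14.9 CPM per kilobase and glutathione reductase (Gsr) had 451 ± 19.7 CPM per kilobase. The metallothionein Mt2 had 185 ± 16.2 CPM per kilobase, and Hmox1, which breaks down heme, had 48.5 ± 6.702 CPM per kilobase. Tfrc, the receptor that takes up transferrin, had 202, 229.7 and 187 CPM with 2 RefSeq transcripts.

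Matrix and integrin genes were measured for 32 of 62 members. Itgb1, the common beta chain, had 730.0 ± 28.7 CPM per kilobase, and the collagen receptor chains Itga2 and Itga1 had 72.5 ± 3.52 CPM per kilobase and 27.6 ± 2.196 CPM per kilobase. The basement membrane genes Col4a2 and Lamc1 had 129 ± 5.52 CPM per kilobase and 64.5 ± 5.02 CPM per kilobase. Ctgf and Cyr61, matricellular proteins, had 244 ± 8.66 CPM per kilobase and 266 ± 1.65 CPM per kilobase, and Ankrd1, a muscle ankyrin repeat gene outside the lists that was picked after its value was seen, had 1471 ± 52.3 CPM per kilobase. Cyr61 hardly varied, with 534, 534 and 539.9 CPM in controls 1 to 3.

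Immediate early genes were measured for 23 of 30 members, and the 19 with 1 transcript had a median of 25.2 CPM per kilobase. They were not of 1 level. Junb had 539 ± 39.2 CPM per kilobase, Ier3 had 310.4 ± 22.3 CPM per kilobase and Klf6 had 195 ± 7.62 CPM per kilobase, whereas Jun had 12.8 ± 1.59 CPM per kilobase, Fos had 2.81 ± 0.364 CPM per kilobase and Egr1 had 0.877 ± 0.189 CPM per kilobase. No library of Junb, Ier3 or Klf6 overlapped one of Jun, Fos or Egr1.

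Chemokine, complement and acute phase genes were measured for 24 of 55 members. Ccl2, which draws monocytes, was the highest with 1045, 873 and 951 CPM, or 1176 ± 106 CPM per kilobase. The neutrophil chemokines Cxcl5 and Cxcl1 had 150.3 ± 6.69 CPM per kilobase and 159 ± 14.7 CPM per kilobase, and their libraries overlapped. The adhesion protein Vcam1 had 129 ± 8.88 CPM per kilobase, Ptgs2, the inducible cyclooxygenase, had 61.5 ± 0.712 CPM per kilobase, and the light chain of class I antigens, B2m, had 488 ± 36.1 CPM per kilobase. The acute phase genes Lcn2 and Saa3 were below the table's floor of 56.8 counts in the controls and are listed only through the treated libraries. Lcn2 had 6, 0 and 1 counts in controls 1 to 3 and Saa3 had 26, 4 and 46.

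Markers of other cells were looked for in the same libraries. Of 10 markers of stellate cells and fibroblasts, 1 was measured, Des, with 3.03, 5.71 and 2.93 CPM. Of 9 markers of macrophages and leukocytes, Cd68 and Lyz2 were measured, and they summed to 3.69, 5.09 and 7.38 CPM in controls 1 to 3. Cd14, a receptor for bacterial lipopolysaccharide in a broader macrophage list, had 623, 603 and 579.5 CPM, or 367 ± 13.1 CPM per kilobase, which is 163 times the level of Lyz2 per kilobase, with library ratios from 82.3 to 504. None of 7 endothelial markers was measured. Of 7 markers of nervous tissue and blood, Mbp was measured at 140.0, 127 and 117 CPM. It has 17 RefSeq transcripts, some of which are known outside the nervous system. No gene of chromosome Y was measured.

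The 3 controls were alike but differed by more than counting error. Among the 3335 genes whose mean reached 500 counts, the median coefficient of variation (CV, SD divided by mean) was 7.84%, against 1.97% that counting alone would give. The 5th and 95th percentiles were 1.78% and 22.2%. Pairs of controls had Pearson's r of 0.990 to 0.991 on log2 CPM across these genes, which are not independent replicates and share each library's depth. The CV became smaller with the count, from 12.1% at 500 to 2000 counts to 3.08% at 50000 counts and more (78 genes). At the latter counting error was 0.334%, so the ratio to counting error was larger among the most abundant genes.

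**Figure D5:**
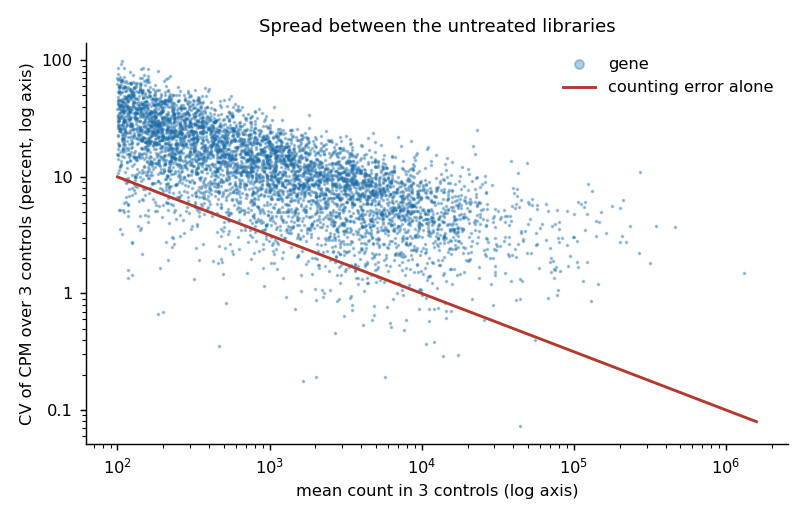
CV of CPM over the 3 controls against the mean count, both on log axes, 1 point per gene whose mean reached 100 counts; the red line is the CV that counting error alone would give. Most genes lie above the line, with a median CV of 7.84% among genes with at least 500 counts.

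Of the 3335 genes, 2014 (60.4%) had a highest library less than 1.2 times the lowest, 214 (6.42%) had a range of at least 1.5-fold and 17 of at least 2-fold. Control 1 was the highest library for 101 of the 214, and control 3 was the lowest for 101. Of the 214, 84 had 1 RefSeq transcript and 130 had several. At 500 to 2000 counts the share with such a range was 12.6% of 589 genes with 1 transcript and 15.2% of 837 with more.

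The 10 genes with the largest ranges were taken with unnamed gene models left out. Among them were Ndufab1, Zdhhc2, Hspa5, Pgpep1, Ddx51, Tbc1d32, Gtpbp1, Dnajb9 and Anapc11, and 7 of the 10 were lowest in control 3. Ndufab1, an acyl carrier protein of mitochondria, had 28.6, 21.3 and 10.1 CPM in controls 1 to 3, a range of 2.83-fold. Hspa5, the main chaperone of the endoplasmic reticulum, had 33.9, 25.1 and 14.4 CPM. Dnajb9, a cochaperone of Hspa5, had 19.99, 33.4 and 15.5 CPM. Hspa5 was highest in control 1 and Dnajb9 in control 2, so the 2 genes did not share an order. Tbc1d32, linked to cilia, had 26.1, 35.5 and 57.04 CPM with control 3 the highest. All 10 had means under 40 CPM. Among abundant genes S100a6 had the CV 11.1%, against 1.49% for Eef1a1, 2.23% for Krt18 and 0.0732% for Fasn, the smallest of all genes with at least 100 counts. The value of Fasn lies below counting error, whose median was 0.795% among genes with 10000 to 50000 counts. As the smallest of many values from 3 libraries, it does not show that Fasn is especially stable.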

How the data were processed

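RNA of 9 AML12 samples was sequenced, and the 3 untreated ones are described. The authors deposited whole-number counts per mouse RefSeq transcript. Per the submitters' processing notes, bcl2fastq, HISAT2 2.2.5 and HTSeq 0.11.2 were used. The notes name a human build, and no source used here gives the annotation, the strand setting or the treatment of shared reads. Counts were summed per symbol and divided by each library's listed total (26576151 to 27357654). RefSeq's GRCm38.p6 table matched 6171 genes (5846 by accession, 310 by symbol, 15 by synonym), and lengths came from GENCODE M21. The common biological CV from edgeR 4.0.16 in R 4.3.3 was 24.0% over all 6213 genes, those with few counts included. Its estimate was tested on simulated counts with the same biological CV in every gene. In these data the CV changes with the count, so that test does not check the 24.0%. No groups were compared, and no test was made. Precision is given by the spread of 3 libraries. The labels name no molecular identifiers.

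Members and lists were chosen with earlier results of these data known. Named genes were the 20 highest in CPM, the 10 highest per kilobase, up to 6 highest and the lowest of each of 36 lists (1231 genes, 730 measured), the 10 with the largest range, and a fixed set of liver, epithelial and growth genes. Of these a selection is printed, and some are not reported here. Other list members in the text were named for their roles after their values were seen. The 275 unnamed gene models were not described. Alternatives were 2 other scalings (trimmed mean of M values, DESeq2 1.42.0 size factors), curated transcripts, the highest transcript per gene, a floor of 500 counts, the table with the Ang(1-7) group, leaving out each control and, added after seeing the data, genes with 1 RefSeq transcript.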

Additional observations from a re-analysis of the deposited data

How the results depend on the processing

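No paired analysis was possible because the controls are 1 group and their replicate numbers pair them with nothing that was compared. The number of genes at or above 100 CPM was 1626 as reported and 1419 to 1643 under the alternatives run. The 1419 was counted among only 2525 genes with 1 RefSeq transcript, scaled to their own smaller total, so it is not a like count. A floor of 500 counts lies below 100 CPM and could not remove such a gene. The share of counts in the 10 highest genes was 14.2% as reported, 14.45% with curated transcripts only, 14.51% among genes with at least 500 counts and 16.0% among genes with 1 RefSeq transcript only. The summed CPM of plasma protein genes was 810.4 with the last. The median CV among controls was 7.73% with curated transcripts and 6.74% with genes of 1 RefSeq transcript. Leaving out 1 control at a time gave 1620.0 to 1628 genes, a share of 14.2% to 14.3%, a plasma protein sum of 931 to 983 CPM and a median CV of 6.13% to 6.25%, the last being computed from 2 libraries. The common biological CV was 21.6% to 26.0% when each control was left out. Of the 236 genes that the naming rule gives, none moved by more than their SD under the other scalings. With curated transcripts 20 of 218 did, and with the floor of 500 counts 24 of 188. With genes of 1 RefSeq transcript, where the total is smaller, 143 of 155 did. Of the list sums, none moved by more than their SD under the other scalings or with a control left out. With curated transcripts 7 of 35 did, with the floor 13 of 34, and with genes of 1 RefSeq transcript 30 of 33. On the scale of counts per kilobase 32 of 33 did. Ndufab1 moved by 2.61-fold with curated transcripts and Nr2f6 by 1.89-fold with the highest transcript. Without controls 1, 2 and 3 in turn, 1, 4 and 5 of the 236 genes moved by over 1.5-fold, the most being 4.55-fold for Lcn2, 2.34-fold for Snai2 and 1.86-fold for Slc4a2, and the cause was not tested. Under 100 counts the median CV was 39.4%, against 11.7% from counting error.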

Other observations

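The median level of the genes was taken for each chromosome, as RefSeq's GRCm38.p6 table assigns them. Over 2405 genes with 1 RefSeq transcript and a length, histone genes left out, the median was 42.8 CPM per kilobase. It was 95.6 on chromosome 15 (113 genes), 82.1 on chromosome 19 (93 genes), 69.6 on chromosome 6 (108 genes) and 58.6 on chromosome 8 (134 genes). The other autosomes and chromosome X lay between 27.3 (chromosome 18, 75 genes) and 51.8 (chromosome 13, 104 genes). With histone genes, chromosome 13 stood at 94.8. The spread between the genes of a chromosome was not set beside these medians, so the chromosomes are not shown to differ. No DNA was measured, and no reason for the order was tested.

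Some abundant genes fall outside the lists and were picked after their values were seen. Anxa3, an annexin, had 2618, 2657 and 2685 CPM per kilobase in controls 1 to 3. Tm4sf4, a tetraspan membrane protein of liver and gut, had 1426, 1377 and 1356 CPM per kilobase. Both lay well above the upper quartile of 127 for genes with 1 RefSeq transcript.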
